A study of Homo sapiens with 2 samples.

Results

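The integrated stress response was followed through 6 of its genes, ATF4, ATF3, DDIT3, ASNS, HERPUD1 and TRIB3, in RNA of HEK-293T, an established line from human embryonic kidney. The genes were taken as 6 fixed intervals of the hg19 genome, each read on its own transcript strand, and all 6 had listed positions in both libraries. The cells carried a CIRTS-hADAR biosensor, an engineered RNA-targeting system joined to a human ADAR enzyme, and were sequenced without and with the small molecule ABA (abscisic acid, a plant hormone). ADAR enzymes turn adenosine into inosine, which sequencing reads as G, and the files hold base counts at A positions of the transcripts. Each condition had 1 library, of mRNA-enriched RNA, and the cells without ABA carried the biosensor too. The labels state neither the dose nor the time of ABA, and cells without the biosensor were not analysed here. With 1 library on each side, no difference below could be checked in a replicate. The 95% intervals given reflect counting error only, and they are too narrow even for that, since a read counts at each position it covers.

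In the integrated stress response, kinases that sense amino acid shortage, unfolded protein in the endoplasmic reticulum (ER), viral RNA or lack of haem phosphorylate the translation factor eIF2. General translation then slows, while the messenger RNA of ATF4 is translated more because of short upstream reading frames in its leader. ATF4 is a transcription factor that turns on genes of amino acid supply, such as ASNS, and further regulators, such as ATF3, DDIT3 and TRIB3. Control of ATF4 itself is to a large part translational.

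The 6 intervals held 2369 listed A positions without ABA and 2073 with ABA, of 4079392 and 3518802 in the whole libraries, and 2053 were listed in both. Nuclear positions, those of chromosomes 1 to 22 and X, summed to 50748953 base reads without ABA and 44914317 with ABA, with a median depth of 10 reads in each. Positions under 6 reads are missing from the files, so thin genes lose positions. Depth is given as base reads per 1000000 (RPM), over positions listed in both libraries. In 5 of the 6 intervals the opposite strand held at most 1.60% of the gene's base reads without ABA and 0.670% with ABA. In the DDIT3 interval it held 15.0% and 24.01%.

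A known control element of ATF4 target genes is the C/EBP-ATF response element, a composite site bound by ATF4 with a C/EBP partner. Promoter windows of RefSeq (GRCh38.p14, 250 bases before to 50 after a start) are shown for 3 members whose depth ratios differed: ASNS, HERPUD1 and TRIB3. ASNS lies on the minus strand at chr7:97872359-97872658, HERPUD1 on the plus strand at chr16:56931892-56932191 and TRIB3 on the plus strand at chr20:381045-381344, all in GRCh38.p14 coordinates, which are not those of the hg19 files. Capitals mark matches to the core TGATGNAA on either strand and, in HERPUD1, also to the second ER stress response element, ATTGG and CCACG with 1 base between.
ASNS: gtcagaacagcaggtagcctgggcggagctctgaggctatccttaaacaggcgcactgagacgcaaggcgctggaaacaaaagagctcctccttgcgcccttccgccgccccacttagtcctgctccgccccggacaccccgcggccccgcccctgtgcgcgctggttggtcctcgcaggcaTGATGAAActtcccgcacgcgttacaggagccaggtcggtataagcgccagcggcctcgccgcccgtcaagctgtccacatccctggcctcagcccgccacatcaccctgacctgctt
HERPUD1: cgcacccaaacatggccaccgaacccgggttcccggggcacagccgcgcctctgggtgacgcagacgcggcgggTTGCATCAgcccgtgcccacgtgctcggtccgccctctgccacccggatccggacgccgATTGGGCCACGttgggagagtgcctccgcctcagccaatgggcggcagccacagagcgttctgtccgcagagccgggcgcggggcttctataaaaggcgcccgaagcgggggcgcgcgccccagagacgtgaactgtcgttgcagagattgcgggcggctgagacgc
TRIB3: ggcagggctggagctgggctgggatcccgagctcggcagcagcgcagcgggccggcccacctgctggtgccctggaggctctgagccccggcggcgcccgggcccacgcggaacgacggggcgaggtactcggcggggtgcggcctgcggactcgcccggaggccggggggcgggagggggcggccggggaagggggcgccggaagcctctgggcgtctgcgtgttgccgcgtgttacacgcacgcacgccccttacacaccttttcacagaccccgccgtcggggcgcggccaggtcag

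The core matched once in ASNS, starting 68 bases before the start site as TGATGAAA. In HERPUD1 it matched once on the opposite strand, as TTGCATCA, starting 176 bases before the start site. Of the 12 windows of the 6 genes, 3 held the core, the other being 1 of the 2 windows of ATF3, against 3.62% of all 35116 windows. The hg19 interval of ATF3 begins at 212738676 and its listed positions at 212763314. Which start the RNA of a gene with several windows came from was not determined. The windows of ATF4, of DDIT3 and of TRIB3 overlap almost fully within each gene, so the 12 are not separate promoters. The second ER stress response element was found in HERPUD1 alone among the 6 genes and in 0.0541% of all windows. The windows of ATF4, DDIT3 and TRIB3 held neither motif. The depth ratios, ABA over no ABA, of these 3 genes were 1.08, 0.728 and 0.532. Those of ASNS, HERPUD1 and ATF3, which held the core, were 0.998, 0.849 and 0.732. A link of motif and depth ratio was not tested. The cyclic AMP response element, TGACGTCA, and the first ER stress response element, CCAAT and CCACG with 9 bases between, were in 0 of the 12 windows, against 1.85% and 0.0769% of all windows. A list of 23 further pathway genes was fixed by symbol, of which 19 had a window, and the core was in 3 of these, CEBPG, CHAC1 and SLC3A2. This count is per gene, over 26 windows, whereas the 3.62% is per window. Of the 19 genes, 1, XBP1, held the first ER stress response element, and 1, PPP1R15A, the cyclic AMP response element. The second ER stress response element was in 0 of them. Depth and editing of these 23 genes were not analysed here, since no hg19 annotation was used.

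TRIB3 had the lowest depth in the ABA library relative to the library without ABA. TRIB3 is a pseudokinase that ATF4 and DDIT3 turn on and that dampens ATF4 activity. At the positions listed in both libraries its depth was 85.4 RPM without ABA and 45.5 RPM with ABA, a ratio of 0.532 (0.503 to 0.563), or 1.88-fold lower. ATF3 and DDIT3 were also lower, HERPUD1 less so, while ASNS had nearly the same depth in both libraries and ATF4 was slightly higher. Scaled to all listed nuclear reads, which multiplies every ratio by 1.10, ASNS stood at 1.10 and ATF4 at 1.19, and the other 4 genes stayed below 1. TRIB3 alone lay past 1.5-fold at shared positions, so 1 of the 6 genes was lower and 0 were higher by that limit. With positions that 1 library does not list counted as 0 reads there and the scale kept, DDIT3 passed it too, at 0.662, which made 2 of 6. Of 9517 windows of 20000 nt with at least 2000 reads in both libraries together, 0.515% were at least 1.5-fold lower with ABA and 0.347% at least 1.5-fold higher. In bulk RNA, fewer cells that express a gene and less RNA per cell cannot be told apart.

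**Figure D1:**
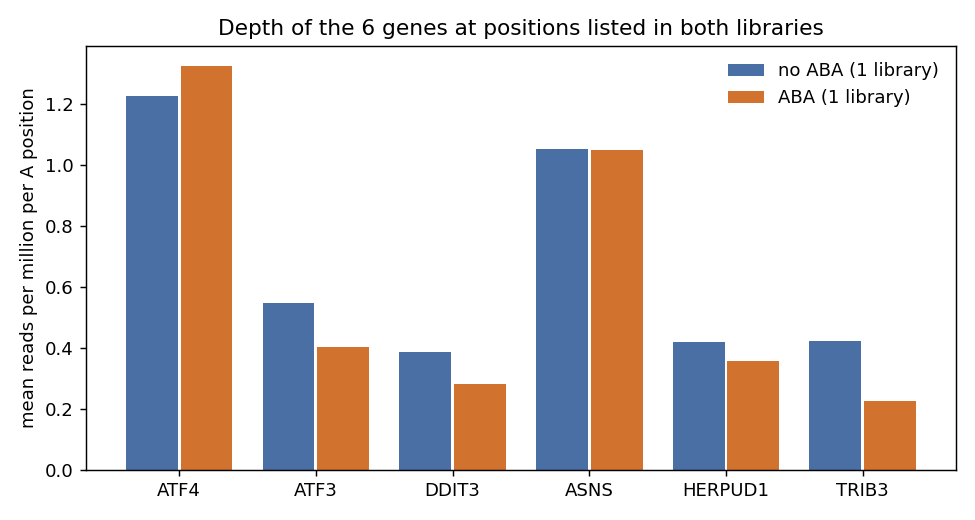
Mean RPM per A position (y axis, linear from 0) for the 6 genes, over positions listed in both libraries, with 1 bar per library and no replicates. ATF4 and ASNS stand highest in both libraries, and TRIB3 goes from 0.421 without ABA to 0.224 with ABA.

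ATF4, the transcription factor at the head of the pathway, lies on chromosome 22 from 39916569 to 39918691, on the plus strand. All of its 349 listed positions were listed in both libraries. Its depth ran from 9 to 112 reads with a median of 49 without ABA, and from 6 to 112 with a median of 52 with ABA. The depth of 428 RPM without ABA and 462 RPM with ABA gave a ratio of 1.08 (1.057 to 1.102). This ratio lay above 73.2% of the 9517 windows. Of its 3 stretches of neighbouring positions, at most 100 nt apart, the middle one, from 39917366 to 39917674, had the highest ratio, 1.23 (1.17 to 1.30). The first, from 39916637 to 39916752, had 0.981 (0.868 to 1.11), an interval that holds 1. ATF4 has processed pseudogenes elsewhere in the genome, and the sources used here do not state how reads matching several places were treated.

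ATF3 is a transcription factor, mostly a repressor, that ATF4 and many other stress signals turn on within a short time. It lies on chromosome 1 from 212738676 to 212794119, on the plus strand. Its listed positions numbered 500 without ABA and 436 with ABA. Depth at the 433 shared positions had a median of 22 reads without ABA (6 to 45) and 15 with ABA (6 to 33). In RPM it was 237 without ABA and 174 with ABA, a ratio of 0.732 (0.710 to 0.755). Scaled depth was lower with ABA at 383 of 433 positions, and neighbouring positions share reads. The other positions include a run from 212793691 to 212793721 that was higher with ABA. There the reads without and with ABA were 13 and 16 at the first position, and 8 and 10 at the last. The 3 stretches of ATF3 with at least 200 reads in each library had ratios of 0.616 (0.554 to 0.684), 0.703 (0.653 to 0.757) and 0.757 (0.730 to 0.785) from 5′ to 3′. Further 5′, the stretches from 212763314 to 212763362 and from 212763571 to 212763617 had 17 and 16 listed positions, of which the ABA library listed 2 and 0.

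DDIT3 encodes CHOP, a transcription factor of the C/EBP family linked to cell death under lasting ER stress. It lies on chromosome 12 from 57910371 to 57914300, on the minus strand, and its listed positions reached only from 57910408 to 57911508. It was thin, with a median of 15 reads without ABA and 10 with ABA at 166 shared positions, of which 6 had at least 20 reads in both libraries. The depth of 64.1 RPM without ABA and 46.7 RPM with ABA gave a ratio of 0.728 (0.686 to 0.773). Split in the middle, the 5′ part of the shared positions had a ratio of 0.608 (0.555 to 0.666) and the 3′ part 0.840 (0.775 to 0.909). A read counts at each position it covers, so these intervals are too narrow to show that the parts differ. On the opposite strand, positions from 57910378 to 57910778 were listed, with 9.63 RPM without ABA and 11.5 RPM with ABA. Without the part where both strands are listed, the DDIT3 ratio was 0.696. This strand overlap reaches into both the 5′ and the 3′ part, and its share in either value was not tested.

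ASNS, asparagine synthetase, makes asparagine from aspartate and glutamine and is a standard ATF4 target in amino acid shortage. It lies on chromosome 7 from 97481429 to 97501854, on the minus strand. It had the most base reads of the 6 genes, 23347 without ABA and 22693 with ABA over 540 shared positions. Median depth was 42 reads without ABA (7 to 85) and 41 with ABA (6 to 81). The depth of 568 RPM without ABA and 567 RPM with ABA gave a ratio of 0.998 (0.980 to 1.02), an interval that holds 1. Of its 11 stretches with enough reads, 6 had a ratio under 1 and 5 above, from 0.797 (0.732 to 0.867) at 97483895 to 97484065 to 1.11 (1.04 to 1.18) at 97488167 to 97488261. The ratio of ASNS lay above 51.6% of the windows, near their middle.

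HERPUD1 encodes a membrane protein of the ER that takes part in the degradation of misfolded ER proteins. It lies on chromosome 16 from 56965748 to 56977793, on the plus strand, with 421 listed positions without ABA and 368 with ABA. Median depth at the 362 shared positions was 17 reads without ABA (6 to 37) and 13 with ABA (6 to 35). The depth of 152 RPM without ABA and 129 RPM with ABA gave a ratio of 0.849 (0.818 to 0.881). All 7 of its stretches had a ratio under 1, from 0.742 (0.650 to 0.846) to 0.943 (0.870 to 1.02). With 12.7% of the windows below it, its ratio was within the usual range of the windows, whose percentiles 5 and 95 were 0.785 and 1.247.

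TRIB3 lies on chromosome 20 from 361308 to 378203, on the plus strand. It was listed at 345 positions without ABA and 203 with ABA, and all 203 were among the 345. Depth at the 203 shared positions had a median of 16 reads without ABA (8 to 32) and 8 with ABA (6 to 20). Scaled depth was lower with ABA at 199 of 203 positions. Both stretches with enough reads were lower, with ratios of 0.550 (0.470 to 0.643) at 368697 to 368944 and 0.534 (0.501 to 0.568) at 376843 to 378182. The 5′ and 3′ parts had 0.504 (0.464 to 0.548) and 0.559 (0.516 to 0.605). A lower ratio was found in 0.0420% of the windows and in 0.255% of all nuclear stretches with at least 200 reads in each library. With the scale kept, counting the 142 positions missing with ABA as 0 reads gave a ratio of 0.361, and counting them as 5 reads, the highest depth the files leave out, gave 0.501.

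**Figure D2:**
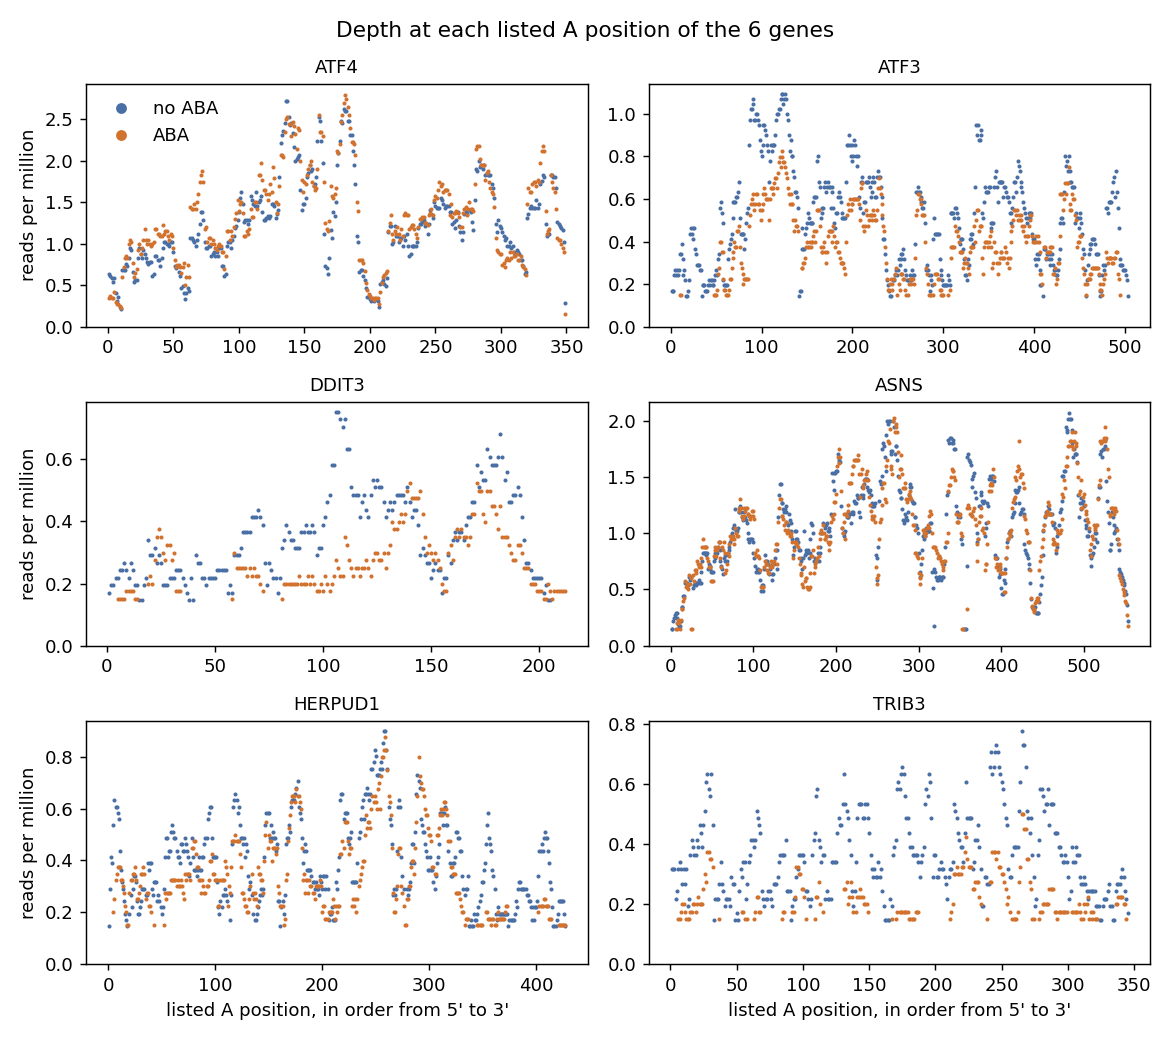
RPM at each listed A position (y axis, linear from 0) against the order of the position from 5′ to 3′ (x axis), 1 panel per gene and 1 colour per library. The libraries overlay in ASNS, and in ATF4 the points with ABA lie below those without at only 89 of 349 positions. In TRIB3 the points with ABA lie below at 199 of the 203 shared positions.

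Among all 27 stretches of the 6 genes with at least 200 reads in each library, 20 had a ratio under 1 and 7 above. At least 1.5-fold lower were 3 of the 27, 2 in TRIB3 and 1 in ATF3, and 0 were at least 1.5-fold higher. Of 41973 nuclear stretches treated the same way, 2.30% were at least 1.5-fold lower and 2.0% at least 1.5-fold higher. Stretches of 1 gene share their transcript and are not independent. The median ratio of all stretches was 1.01 and that of the windows 0.994, so the scale was centred near 1. With ratios of 0.732 and 0.728, ATF3 and DDIT3 lay above 1.82% and 1.66% of the windows, and above 5.65% and 5.35% of the stretches, whose percentile 5 was 0.723.

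**Figure D3:**
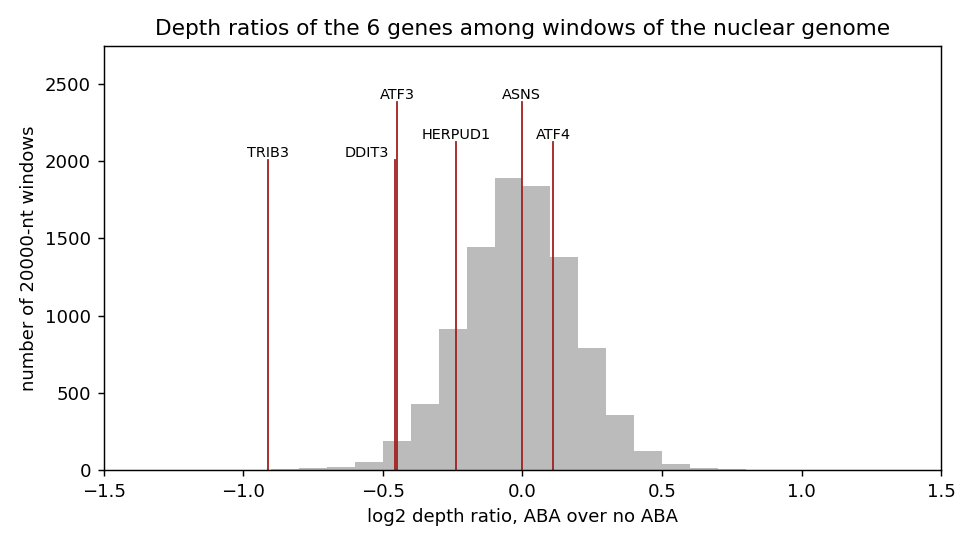
Number of 20000-nt windows (y axis) by log2 of their depth ratio, ABA over no ABA (x axis), for windows with at least 2000 reads in both libraries together. Red lines mark the 6 genes, with TRIB3 at the far left, ATF3 and DDIT3 in the left tail and ASNS at the middle.

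Set against their length, as mean RPM per shared A position, the 6 genes fell into a high pair and a low set. Without ABA the order was ATF4 with 1.23, ASNS 1.05, ATF3 0.548, TRIB3 0.421, HERPUD1 0.419 and DDIT3 0.386. With ABA it was ATF4 with 1.32, ASNS 1.05, ATF3 0.402, HERPUD1 0.356, DDIT3 0.281 and TRIB3 0.224. TRIB3 was thus level with HERPUD1 without ABA and lowest of all with ABA. The values of the low set are too high, since positions under 6 reads are missing. With 1 library per condition no spread between samples can be set beside this order.

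A-to-G reads were more frequent with ABA in ATF4 and ATF3, 2 of the 6 genes, whose ratios had an interval above 1. ATF4 had 20 G reads among 17586 without ABA, 0.114% (0.0695 to 0.176), and 45 among 18467 with ABA, 0.244% (0.178 to 0.326), giving a ratio of 2.14 (1.24 to 3.83). ATF3 had 8 G reads among 10439 without ABA, 0.0766% (0.0331 to 0.151), and 23 among 6986 with ABA, 0.329% (0.209 to 0.494), giving a ratio of 4.30 (1.86 to 11.1). All nuclear positions had 0.0386% and 0.0777%, a ratio of 2.01 (1.98 to 2.05). The intervals of both genes hold this nuclear ratio, so neither was shown to differ from the general difference between the libraries. Of 11341 windows, 3.33% had an interval above 1 and 0.0441% one below 1, a share that depends on the reads of each window. None of the 6 genes had an interval below 1.

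In the 4 other genes the interval of the ratio held both 1 and the nuclear ratio, so a difference was not detectable at this depth. ASNS had 11 G reads among 23408 without ABA, 0.0470% (0.0235 to 0.0841), and 16 among 22714 with ABA, 0.0704% (0.0403 to 0.114), a ratio of 1.499 (0.653 to 3.57). HERPUD1 had 2 of 6802 and 1 of 5202 reads, a ratio of 0.654 (0.0111 to 12.6). TRIB3 had 1 of 5183 and 1 of 1820 reads, a ratio of 2.85 (0.0363 to 224). DDIT3 had 1 G read among 2974 without ABA and 0 among 1916 with ABA, which allows a rate of up to 0.192% by the exact interval, and the interval of its ratio ran from 0 to 60.5. The nuclear rate with ABA lies below that limit, so a difference from it was not detectable at this depth.

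**Figure D4:**
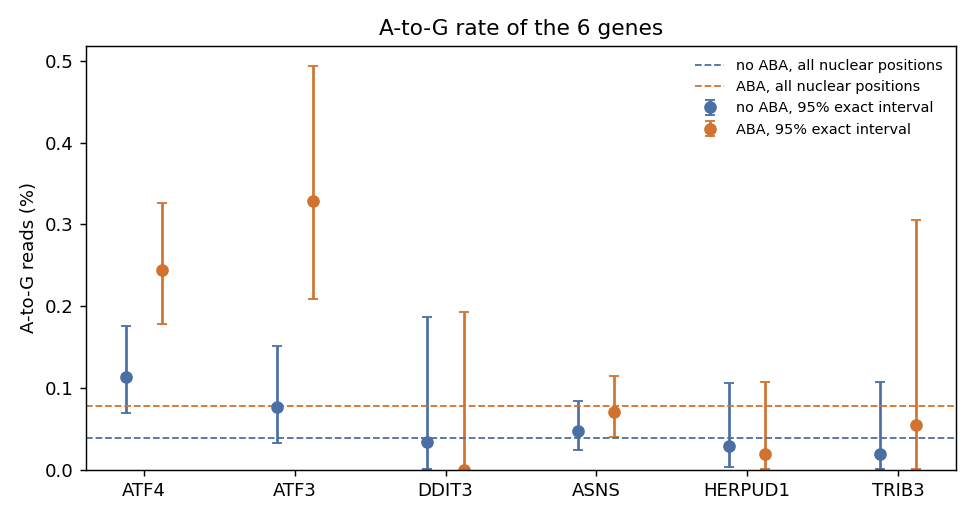
A-to-G reads as percent of A plus G reads (y axis, linear from 0) in each gene, with exact 95% intervals of counting error for each library and dashed lines for all nuclear positions. ATF4 and ATF3 with ABA lie above the nuclear line of 0.0777%, and the intervals of the other 4 genes hold the nuclear rate of their library.

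Over the 6 genes together, the background changes were rarer than A-to-G at the same A positions. A-to-C reads in ATF4 numbered 2 without ABA and 3 with ABA, and A-to-T reads 1 and 4. ATF3 had 1 and 0 A-to-C reads and no A-to-T read in either library. In ASNS there were 5 and 2 A-to-C reads. Over the 6 genes A-to-C stood at 0.0151% (0.00723 to 0.0277) without ABA and 0.0105% (0.00386 to 0.0229) with ABA. These came from 10 and 6 reads, a ratio of 0.698 (0.209 to 2.12). A-to-G stood at 0.0648% and 0.151% over the 6 genes. The nuclear A-to-C rate was 0.00618% without ABA and 0.00746% with ABA. Without ABA the A-to-C interval of the 6 genes thus lies above the nuclear rate, and with ABA it holds it. The nuclear A-to-T rate was 0.00396% and 0.00424%, and the A-to-T intervals of the 6 genes hold it. Over all nuclear positions both background changes were higher with ABA, A-to-C with a ratio of 1.21 (1.15 to 1.27) and A-to-T with 1.07 (1.01 to 1.14). One ATF4 position, chromosome 22 at 39917515, was read as C in all 18 reads without ABA and all 24 with ABA, and was left out of the A-to-C counts as variant-like.

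ATF4 was above the nuclear A-to-G rate in both libraries, 2.95 times the rate of all other nuclear positions without ABA (1.80 to 4.55) and 3.14 times with ABA (2.29 to 4.204). Nuclear rates were higher at deeper positions, and the part of depth in the rate of ATF4 was not tested beyond the values at like depth. At positions of at least 50 reads the nuclear rate was 0.122% without ABA and 0.225% with ABA, and ATF4 had 0.138% (0.0790 to 0.224) and 0.294% (0.207 to 0.405) there. At positions of 20 to under 50 reads the nuclear rate was 0.0494% and 0.0916%, and ATF4 had 0.0703% (0.0192 to 0.180) and 0.143% (0.0618 to 0.282). Each of these ATF4 intervals holds the nuclear rate of like depth. ATF3 had 0.0779% (0.0286 to 0.169) and 0.380% (0.196 to 0.662) in that range, from 6 and 12 G reads, and the second interval lies above the nuclear rate. Of these 12 G reads with ABA, 5 lay on 1 position, 212792997. Whether ATF3 lies above the nuclear rate in this range without that position was not tested. Against all other nuclear positions, ATF3 was 1.98 times as high without ABA (0.856 to 3.91), an interval that holds 1, and 4.24 times with ABA (2.69 to 6.37). ASNS, nearly as deep as ATF4, was 1.22 times the nuclear rate without ABA (0.607 to 2.18) and 0.907 times with ABA (0.518 to 1.47). At positions of at least 50 reads ASNS had 0.0752% (0.0325 to 0.148) without ABA, an interval that holds the nuclear rate of that depth, and 0.0654% (0.0240 to 0.142) with ABA, an interval below it. At 20 to under 50 reads it had 0.0162% (0.00197 to 0.0586) and 0.0763% (0.0366 to 0.140), and both intervals hold the nuclear rate.

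G reads in ASNS each fell on a position of their own, 11 positions without ABA and 16 with ABA. In ATF4 the 20 G reads without ABA lay on 17 positions and the 45 with ABA on 28. ATF3 had 8 G reads on 8 positions without ABA and 23 on 17 positions with ABA. Within ATF4 the stretch from 39917366 to 39917674 had 0 G reads of 2665 without ABA (0 to 0.138%) and 11 of 3197 with ABA, 0.344% (0.172 to 0.615). This stretch was picked after its values were seen. The 3′ stretch, from 39917778 to 39918682, had 0.132% (0.0795 to 0.206) and 0.230% (0.160 to 0.322), and these intervals overlap.

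No position of the 6 genes passed the test of single sites. A two-sided Fisher's exact test was run on each of 359090 nuclear positions covered by 20 or more A plus G reads in each library, with Benjamini-Hochberg adjustment over all of them, and compares 2 libraries and not the conditions. Of 1027 tested positions in the 6 genes, 0 were called raised and 0 lowered, where a call needs an adjusted p below 0.05 and 10 or more percentage points of change. Over all positions the called share was 0% in each direction. In simulated data the test found 4% of sites shifted by 20 points, so a shift of that size would mostly be missed. Before adjustment, 1 position of the 6 genes, higher with ABA, had an exact p below 0.05, as did 63 higher and 2 lower positions overall. By direction alone, the G share was higher with ABA at 53 of the 1027 positions and lower at 27, with no G read at 947. Directions were not counted over all 359090 positions. Since the nuclear A-to-G rate was 2.01 times as high with ABA, this split cannot be read as a trait of the 6 genes. ATF4 held 28 of the higher and 14 of the lower positions, ASNS 16 and 10, ATF3 8 and 3 and HERPUD1 1 and 0. The 6 tested positions of DDIT3 and the 2 of TRIB3 had no difference in share.

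The site with an unadjusted exact p under 0.05 was in ATF3, on chromosome 1 at 212792997, 29683 nt from the first listed position. It had 0 of 27 reads with G without ABA (0 to 12.8%) and 5 of 25 with ABA, 20% (6.83 to 40.7), an exact p of 0.0204 and an adjusted p of 1. It was the only edited site of the 6 genes, where an edited site has at least 20 reads, at least 3 of them G, and a share of at least 10%. The 6 genes thus had 0 edited sites among 1367 positions without ABA and 1 among 1048 with ABA. Of all nuclear positions with at least 20 reads, 0.0197% and 0.0423% were edited sites. Counts of 0 and 1 cannot be told apart from these shares. By the same rule the 6 genes held 0 A-to-C and 0 A-to-T sites in either library, where the nuclear share of A-to-C sites stood at 0.00315% in the library without ABA and 0.00439% in the other. A-to-T sites made up 0.00158% and 0.00125%. Without position 212792997 the A-to-G ratio of ATF3 was 3.37 (1.39 to 8.95). A second ATF3 position, at 212793552, was too thin for the test and was picked after its values were seen. It had 0 of 20 reads with G without ABA and 3 of 11 with ABA, 27.3% (6.02 to 61.0).

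In ATF4 the largest differences in share were smaller. Position 39917668 had 0 of 39 G reads without ABA and 4 of 46 with ABA, 8.70% (2.42 to 20.8), with an exact p of 0.121 and an adjusted p of 1. Position 39918390 had 0 of 59 and 3 of 62, 4.84% (1.01 to 13.5), and position 39917552 had 0 of 46 and 3 of 64, 4.69% (0.977 to 13.1). None of these reached an unadjusted exact p under 0.05. The ATF4 position with the most G reads, 39918128, was read as G in both libraries, in 4 of 107 reads without ABA (3.74%, 1.03 to 9.30) and 6 of 110 with ABA (5.45%, 2.03 to 11.5), and was picked after its values were seen. Among tested positions of the 6 genes with 3 or more G reads in all, 0 had a lower share with ABA. Nuclear positions picked the same way were not counted, and A-to-G reads were more frequent with ABA there too. Whether these positions lie in coding or untranslated sequence was not determined, since no hg19 annotation was used.

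**Figure D5:**
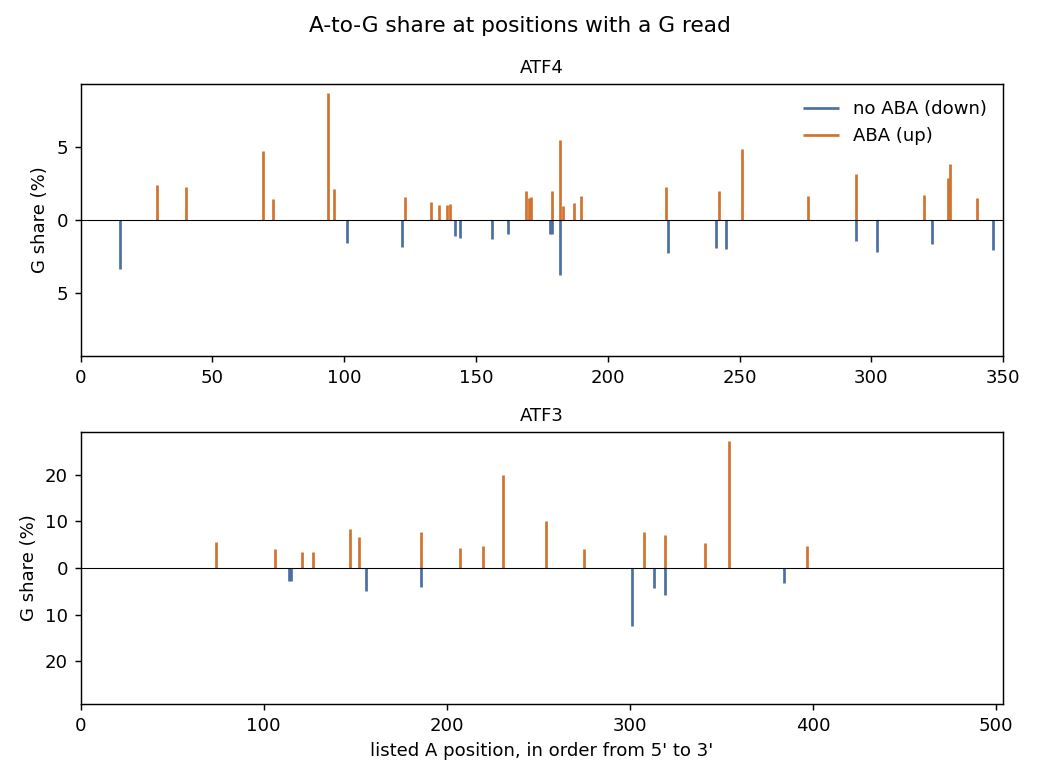
G share in percent (y axis, plotted up for the ABA library and down for the library without ABA) at each A position of ATF4 and ATF3 with a G read, in order from 5′ to 3′ (x axis). In ATF3 the 2 tallest lines, both with ABA, are the positions with 5 of 25 and 3 of 11 G reads, and in ATF4 the position with 4 of 46 is highest.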

How the data were processed

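The authors deposited counts of reads with each base per listed position for each strand of each library, not normalised. Per the file headers the read cutoff per base was 5, and the lowest depth found is 6. Per the submitters' processing notes, cutadapt, HISAT2 and hg19 were used. Versions, base counter and duplicate removal are not given in the sources used here.

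Minus-strand counts were complemented. Base reads per 1000000 (RPM) are scaled to nuclear positions listed in both libraries. A rate is G over A plus G reads with a Clopper-Pearson interval; variant-like positions, where either library had a share of 35% or more, were left out. Ratios have exact conditional binomial intervals. A read covers several positions, so intervals are too narrow.

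Members and lists were chosen with earlier results of these data known. Sites named within the genes were the edited sites and, per gene, the 3 largest rises and falls in share among tested positions with 3 or more G reads in all. The windows of 20000 nt were added after seeing the data. The site test was tried on simulated data over 359090 sites, of which 200 were shifted at once. It found 4%, 30% and 87% of these at shifts of 20, 40 and 60 points. A site shifted alone is harder to find, since the adjustment is then stricter. Cell line markers were not analysed here, for lack of an hg19 annotation. Tables were read with pandas 2.3.3 and numpy 2.4.6 in Python 3.11.15, tests came from scipy 1.17.1, and plots from matplotlib 3.10.9. Depth was retaken over other position sets and scales, and rates over other filters.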

Additional observations from a re-analysis of the deposited data

How the results depend on the processing

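TRIB3 was at least 1.5-fold lower in depth under each of the 8 other ways of taking depth that were run on all 6 genes, and was the only such gene in all but 1, which gave 2 genes. Scaling to all listed nuclear reads multiplied every ratio by 1.10 (0.138 on the log2 scale) and gave 1.19 for ATF4, 0.806 for ATF3, 0.801 for DDIT3, 1.10 for ASNS, 0.933 for HERPUD1 and 0.585 for TRIB3. Positions listed in either library, with a missing one as 0 reads and the scale summed over the same positions, gave 1.19 for ATF4, 0.756 for ATF3, 1.10 for ASNS and 0.397 for TRIB3. With a missing one as 5 reads there and in the scale, chosen after seeing the data, ATF4 had 1.11 and ASNS 1.03. ATF4 has no missing position, so its moves under both come from the scale. Positions with at least 20 reads in both, scaled to such positions, gave 1.035 for ATF4, 0.956 for ASNS, 0.924 for HERPUD1, and, on 6 and 2 positions, 0.850 for DDIT3 and 0.635 for TRIB3. With the scale kept, also chosen after seeing the data, missing positions as 0 reads gave 0.687 for ATF3, 0.662 for DDIT3, 0.786 for HERPUD1 and 0.361 for TRIB3 (the 2 genes past 1.5-fold are DDIT3 and TRIB3), as 5 reads 0.501 for TRIB3, and at least 20 reads 0.763 for ATF3, 0.888 for DDIT3, 0.965 for HERPUD1 and 0.663 for TRIB3. The A-to-G ratios of ATF4 and ATF3 kept an interval above 1 under all 4 alternatives. Those resting on 1 or 2 G reads changed direction: HERPUD1 had 1.31 without its position of most G reads, and TRIB3 had 0 at positions of at least 20 reads. Without any G read left, some settings gave no ratio for DDIT3, HERPUD1 or TRIB3. The site test called 0 positions of the 6 genes with 10 or 50 reads as the coverage minimum too. A share of at least 5% gave 3 edited sites with ABA in place of 1, among 1048 positions of the 6 genes. Of all nuclear positions, 0.0862% passed with ABA and 0.0244% without. The share of stretches past the fold was 0.832% lower and 0.635% higher with at least 2000 reads together. No paired analysis was possible because each condition had 1 library, and leaving out a library leaves no comparison. Depth limits the thin genes most, with 2 positions of TRIB3 and 6 of DDIT3 at 20 reads or more in both libraries.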
